A study of Mus musculus with 19 samples.

Results

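The 38 genes described here encode the proteins that take up glucose, break it down to pyruvate and lactate, pass pyruvate to the mitochondrion, store glucose as glycogen and send it through the pentose phosphate pathway. They were chosen by name from a list of mouse symbols. All 38 were found among the 52143 gene identifiers of the count table, and all 38 were among the 19700 genes with enough counts to be tested. The RNA libraries (poly(A), 19 libraries of 10 lines) came from mouse induced pluripotent stem cells (iPSCs), which are somatic cells returned to an embryo-like state. The corrected group (2 lines, db_c_1 and db_c_2, 4 libraries) consists of db/db iPSCs in which the gene was repaired with CRISPR-Cas9. The db/db group (4 lines, 8 libraries) carries the db mutation of the leptin receptor on both alleles, and the control group (4 lines, 7 libraries) is labelled db_ctrl, with B6 in its line names, and no genotype is stated for it. Control and db/db lines were made from fibroblasts of embryos at day 14.5 bred from OB-Rdb/+ heterozygous mice. All lines descend from cells that received the STEMCCA lentivirus with Oct4, Sox2, Klf4 and cMyc. The source line of the corrected lines, and whether each line is a separate clone, are not in the labels. The db mutation alters the splicing of the leptin receptor transcript, so a count per gene does not check the genotypes.

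Glycolysis splits glucose into pyruvate in the cytosol. Its early steps use ATP, and its later steps, from triose phosphates onward, return it. Pyruvate is either reduced to lactate and exported or converted to acetyl-CoA by the pyruvate dehydrogenase complex, which pyruvate dehydrogenase kinases switch off by phosphorylation. Glucose 6-phosphate can also be stored as glycogen or oxidized in the pentose phosphate pathway, which supplies NADPH and ribose for nucleotides. Pluripotent stem cells are known for a high glycolytic rate, and many glycolytic genes are targets of the hypoxia factor HIF1 and of MYC.

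Libraries held 27333914 to 41203703 estimated counts. The 38 genes took 1.98% to 2.08% of them in corrected libraries, 1.98% to 2.95% in db/db libraries and 2.25% to 2.46% in control libraries. Lines carry a first letter and a shared name (db7 and db5 among db/db lines, B1 and A5 among control lines), and lines of a shared name were near copies of each other. For such pairs of lines, libraries with the same duplicate number had a biological coefficient of variation between them of 2.07% to 10.6% (median 3.26%). With different duplicate numbers it was 4.31% to 12.3% (median 5.15%), and between libraries of 1 line 3.55% to 7.51% (median 5.37%). Libraries of the 2 corrected lines had 2.25% to 6.35%. Libraries of different names in a group differed by 17.3% to 20.9%. P-values with the line as the replicate (n = 2, 4 and 4) are therefore too small, and the members' calls are therefore set beside a fit in which lines of a shared name were summed (3 groups of 2, of which the corrected lines are themselves near copies). The corrected lines still counted as separate units in that fit, so its p-values for corrected lines are too small as well. The second adb_db7 library stood apart, since Gm42418, which lies over a ribosomal RNA sequence, took 4.81% of its counts. Without that library each called member kept its call and none was gained. All 10 pluripotency markers averaged above 1 CPM (library-scaled counts, TMM). Their summed levels were 6390 to 6406 CPM in corrected lines, 6993 to 7439 CPM in db/db lines and 6541 to 7190 CPM in control lines. Averages were under 1 CPM for 2 of 10 fibroblast, 6 of 10 primitive endoderm and 3 of 8 neural markers, but the fibroblast collagen gene Col1a1 averaged 78.2 CPM in corrected, 69.3 CPM in db/db and 143 CPM in control lines and the neural tubulin gene Tubb3 12.6 CPM in corrected, 38.9 CPM in db/db and 65.8 CPM in control lines. Fibroblast sums were 162 to 207 CPM in corrected, 119 to 183 CPM in db/db and 238 to 329 CPM in control lines. Primitive endoderm sums were 20.5 to 22.7, 10.5 to 18.4 and 11.9 to 14.7 CPM in the same order of groups. Neural sums were 37.1 to 38.4, 60.9 to 87.6 and 86.2 to 119 CPM, but not every neural marker followed Tubb3. Pax6 was at 1.2 to 1.8, 4.4 to 5.6 and 1.6 to 2.5 CPM, and Map2 at 6.2 to 7.2, 15.9 to 18.1 and 4.7 to 13.1 CPM. With the line as the unit, edgeR called 1 of 6 tested neural markers higher and 2 lower in db/db against control lines. Of all genes 7.41% were called higher and 9.5% lower there. In corrected against db/db lines 8 of 10 primitive endoderm markers were called higher and 0 lower. Of 10 pluripotency markers 1 was called higher and 5 lower there, beside 18.7% and 18.0% of all genes. With shared names these counts were 4 and 0, and 0 and 2, beside 7.72% and 7.81%. In db/db against control lines 0 of 9 tested fibroblast markers were called higher and 7 lower, and none with shared names. Which part cells of other types have in the members' values was not tested. In bulk RNA fewer cells of a type and less RNA per cell cannot be told apart.

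In corrected lines the members lay mostly on the low side. Against db/db lines 11 of the 38 fell and 2 rose (edgeR's quasi-likelihood test, Benjamini-Hochberg adjusted p under 0.05), with a median log2 fold change of -0.30 for the members and 0.02 for all tested genes. Among all 19700 tested genes 18.0% were called lower and 18.7% higher in that comparison, so the 28.9% of members called lower lay above the background and the 5.26% called higher below it. Against control lines 11 members fell in corrected lines and 3 rose, beside 17.0% of all genes called lower and 16.2% called higher, with medians of -0.30 for members and -0.01 for all genes. In db/db against control lines 3 members rose and 3 fell (7.89% each way), close to the background of 7.41% called higher and 9.5% called lower, and the members' median was 0.05. These comparisons share lines, so their calls are not independent of each other. When lines were scaled by library size alone, all-gene medians shifted to 0.19 against db/db lines and 0.12 against control lines. The members then split into 6 lower and 5 higher (all genes, 1817 and 5215) against db/db lines and into 3 lower and 5 higher (2049 and 4407) against control lines. Without either corrected line fewer members were called in both comparisons, and fewer of all genes were called as well. Those fits leave a lone corrected line, so no share of members is read from them.

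**Figure D1:**
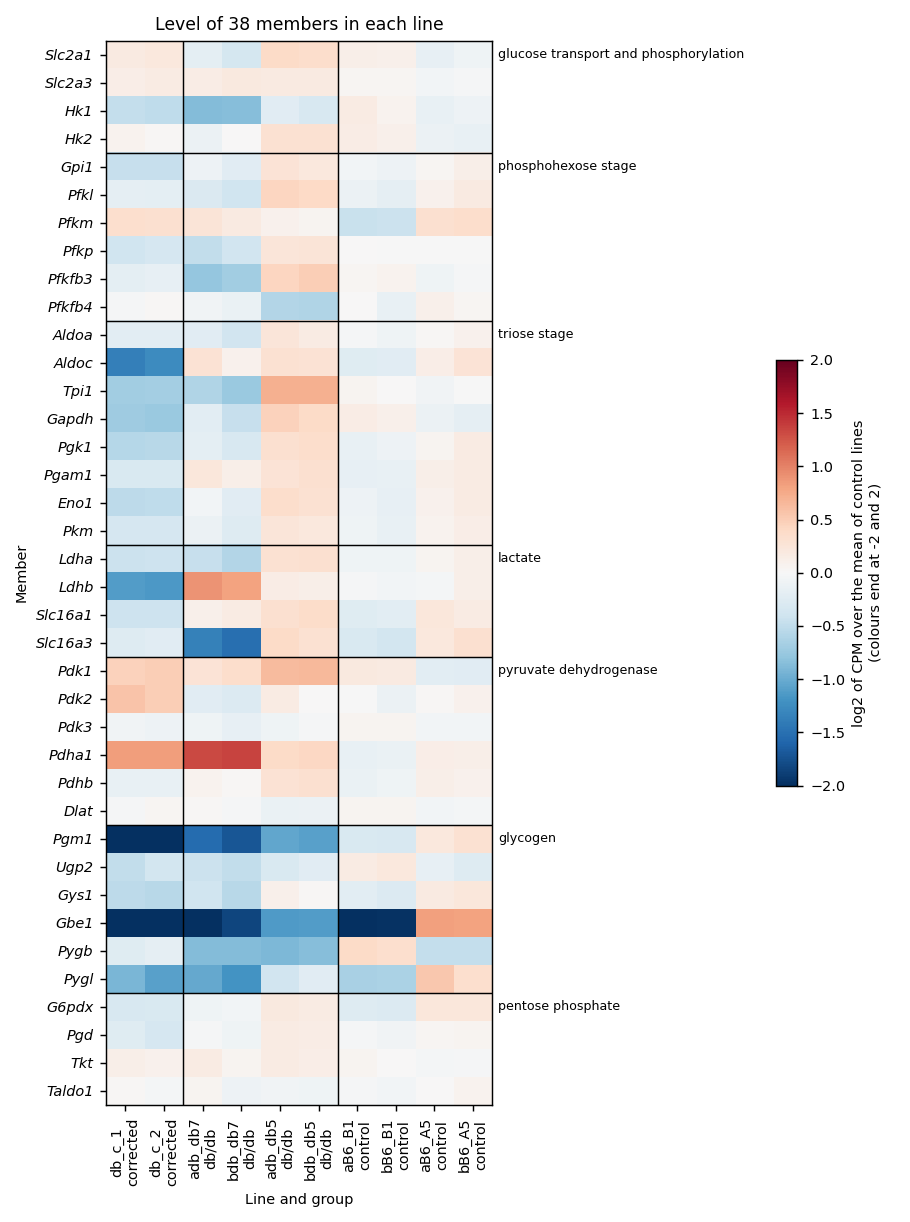
Level of the 38 members (rows, grouped by role) in each of the 10 lines (columns: corrected, db/db, then control), as the log2 of CPM over the mean of the control lines, with colours ending at -2 and 2. Corrected lines have the lowest mean of the 5 kinds of line in 7 of the 8 triose-stage rows, db7 lines are bluer than db5 lines in 31 of the 38 rows, and Pgm1 is lowest in corrected, intermediate in db/db and highest in control lines.

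Abundant genes as a whole were lower in corrected lines, which sets how the members' falls are read. Among 2257 genes averaging 100 CPM or more, 43.9% were called lower and 5.94% higher in corrected against db/db lines, and of the 24 members in that class 8 were lower and 0 higher. Against control lines 38.6% of these genes and 7 of the 24 members were lower. Among genes of that abundance the members' share of falls was thus not above the background.

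With the shared name as the unit, 5 members fell in corrected against db/db lines, where 7.81% of 21134 tested genes were called lower and 7.72% higher. These were Aldoc, Ldhb, Pgm1, Pgam1 and Slc16a1. Against control lines 3 members fell (Pgm1, Aldoc and Ldhb), beside 6.25% of all genes called lower and 5.81% called higher, and no member rose in either comparison. Between db/db and control lines edgeR called no member with this unit, beside 0.0662% of all genes called lower and 0.0946% called higher, although 3351 genes had an unadjusted p under 0.05. With the line as the unit, DESeq2 called 6 members higher and 4 lower in db/db lines. Of all genes it called 2219 higher and 2384 lower there, against 1460 and 1872 with edgeR.

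**Figure D2:**
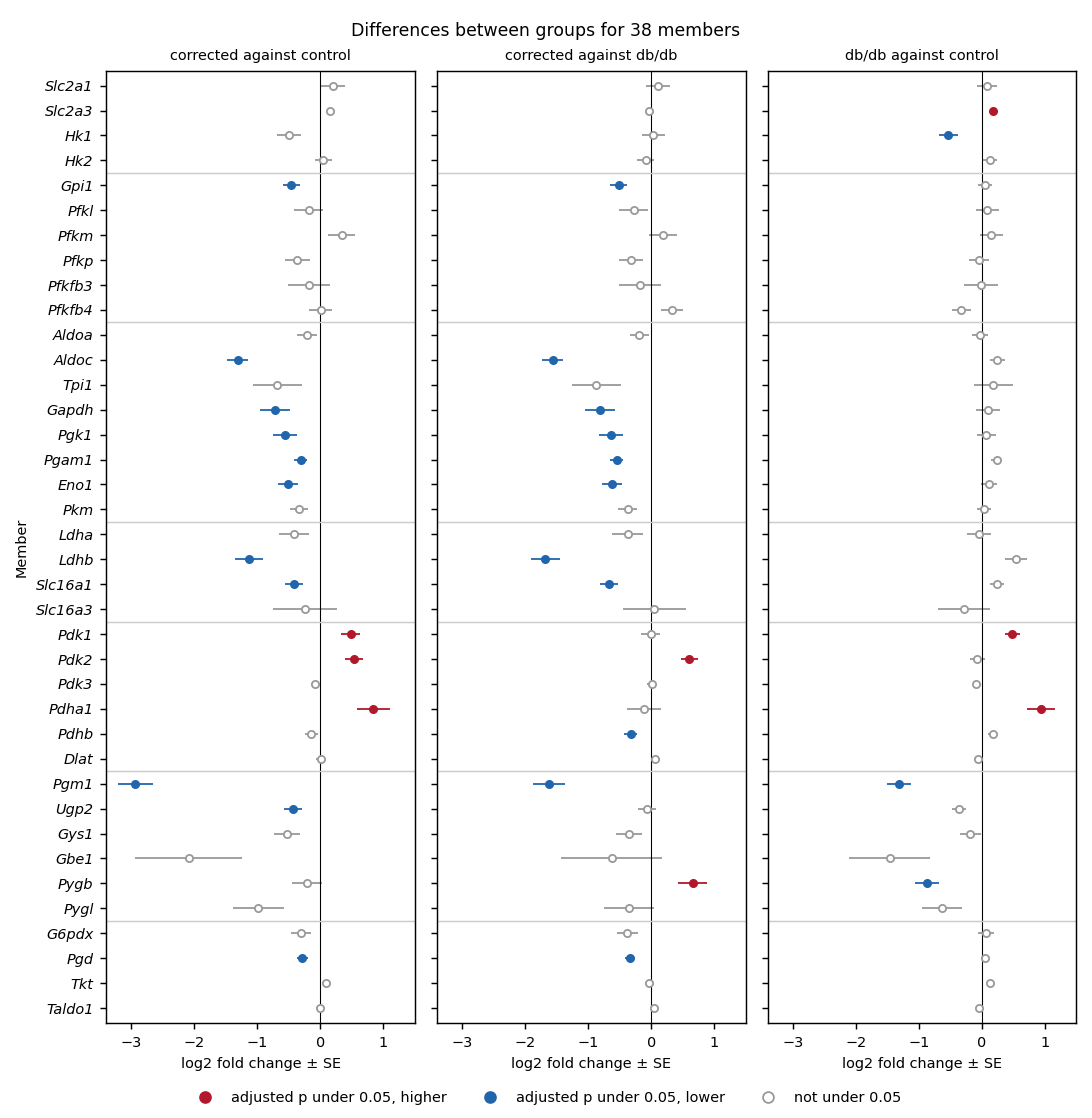
Log2 fold change ± SE of each member in corrected against control, corrected against db/db and db/db against control lines, from the edgeR fit with the line as the unit (n = 2, 4 and 4). Filled points had an adjusted p under 0.05, with 11 lower and 3 higher in the left panel, 11 lower and 2 higher in the middle one and 3 each way in the right one.

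The promoters of the 5 members that fell in corrected lines with shared names as the unit are shown because these falls were called with both units. They are RefSeq sequences of GRCm38.p6, from 250 bases before to 50 bases after the annotated start, read 5′ to 3′ on the gene's strand. Capitals mark ACGTG and GCGTG, the core letters of the hypoxia response element, on either strand (CACGT and CACGC), and CACGTG, the E-box read by MYC, which contains ACGTG. Coordinates are chr11:78322823-78323122 (forward strand) for Aldoc, chr19:41911621-41911920 (forward) for Pgam1, chr6:142507908-142508207 (reverse) for Ldhb, chr3:104638414-104638713 (forward) for Slc16a1 and chr4:99929201-99929500 (forward) for Pgm1.
Aldoc: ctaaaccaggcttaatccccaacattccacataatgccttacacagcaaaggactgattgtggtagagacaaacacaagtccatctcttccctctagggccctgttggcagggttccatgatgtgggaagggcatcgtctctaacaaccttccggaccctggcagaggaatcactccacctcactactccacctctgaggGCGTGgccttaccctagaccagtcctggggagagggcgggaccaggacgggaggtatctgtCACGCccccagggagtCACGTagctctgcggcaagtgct
Pgam1: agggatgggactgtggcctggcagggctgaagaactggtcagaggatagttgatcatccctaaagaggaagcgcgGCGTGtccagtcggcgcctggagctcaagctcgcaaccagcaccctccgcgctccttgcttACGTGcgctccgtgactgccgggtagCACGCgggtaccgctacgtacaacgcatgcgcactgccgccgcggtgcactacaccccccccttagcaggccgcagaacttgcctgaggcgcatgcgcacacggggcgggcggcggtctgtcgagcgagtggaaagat
Ldhb: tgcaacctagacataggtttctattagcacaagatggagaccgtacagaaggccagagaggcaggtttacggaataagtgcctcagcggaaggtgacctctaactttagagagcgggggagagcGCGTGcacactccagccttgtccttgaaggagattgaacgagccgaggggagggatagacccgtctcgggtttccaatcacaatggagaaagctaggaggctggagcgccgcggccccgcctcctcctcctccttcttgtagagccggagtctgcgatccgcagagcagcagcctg
Slc16a1: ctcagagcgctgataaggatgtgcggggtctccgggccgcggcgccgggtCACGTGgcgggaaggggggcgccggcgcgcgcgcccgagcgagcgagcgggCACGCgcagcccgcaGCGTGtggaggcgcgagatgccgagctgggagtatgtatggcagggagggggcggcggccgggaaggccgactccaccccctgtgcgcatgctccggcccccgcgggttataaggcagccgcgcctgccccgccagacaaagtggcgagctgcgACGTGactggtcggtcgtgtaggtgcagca
Pgm1: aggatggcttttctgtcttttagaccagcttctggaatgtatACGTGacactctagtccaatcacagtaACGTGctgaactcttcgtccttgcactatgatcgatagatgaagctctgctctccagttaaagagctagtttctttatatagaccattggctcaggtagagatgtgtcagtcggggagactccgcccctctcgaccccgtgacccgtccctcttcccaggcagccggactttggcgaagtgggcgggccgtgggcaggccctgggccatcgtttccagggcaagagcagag

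The Aldoc window held 3 matches, that of Pgam1 3, that of Ldhb 1, that of Slc16a1 5 and that of Pgm1 2, with an E-box counted on both strands. Among the 5, the Slc16a1 window alone had the E-box. Of the 37 members matched by symbol in the RefSeq table (Slc2a3 was not matched), 29 held ACGTG or GCGTG (78.4%), against 43.8% of 27025 genes with 1 promoter each. Those genes were not limited to the genes tested here, nor matched to the members in base composition. For members the entry nearest the annotated gene start was taken, and for all genes the first entry. What the difference in shares reflects was not tested. The E-box was in 4 of the 37 (10.8%) and 7.2% of all genes. Of the members lower in corrected against db/db lines 10 of 11 held ACGTG or GCGTG, and of the other matched members 19 of 26. A match is a run of letters and shows no binding.

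Of the transporters and hexokinases that bring glucose into the pathway, Slc2a3 rose and Hk1 fell in db/db against control lines, and none of the 4 genes was called in corrected lines. Slc2a3, the transporter GLUT3, stood at 1326 and 1358 CPM in corrected lines, 1342 and 1384 CPM in db7 lines, 1376 and 1372 CPM in db5 lines, 1244 and 1251 CPM in B1 control lines and 1163 and 1197 CPM in A5 control lines. Every db/db line exceeded every control line, by a small margin. Slc2a3 rose in db/db against control lines by log2 0.17 ± 0.04 (SE, edgeR adjusted p = 0.024, and 0.348 with shared names). Its neighbour in function Slc2a1, the transporter GLUT1, passed no test (edgeR adjusted p = 0.462 to 0.751). Slc2a1 was at 573 and 581 CPM in corrected lines, at 441 and 394 CPM in db7 lines against 660.0 and 639.7 CPM in db5 lines, and at 451 to 549 CPM in control lines.

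Hexokinases trap glucose inside the cell as glucose 6-phosphate. Hk1, the form found in most tissues, stood at 49.2 and 48.2 CPM in corrected lines, 37.6 and 38.2 CPM in db7 lines, 59.0 and 55.1 CPM in db5 lines, 77.0 and 72.0 CPM in B1 control lines and 62.0 and 63.9 CPM in A5 control lines. No corrected or db/db line reached the level of a control line. Hk1 fell in db/db against control lines by log2 -0.53 ± 0.15 (edgeR adjusted p = 0.0375, and 0.288 with shared names). In corrected against control lines the difference of -0.50 ± 0.19 missed the threshold (edgeR adjusted p = 0.0663). Hk2, which binds to mitochondria and is the more abundant form here per length, averaged 429 ± 12.4 CPM in corrected, 455 ± 67.6 CPM in db/db and 415 ± 44.3 CPM in control lines (SD) and passed no test (edgeR adjusted p = 0.42 to 0.808).

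At the phosphohexose stage Gpi1, which interconverts glucose 6-phosphate and fructose 6-phosphate, fell in corrected lines. Its levels were 578 and 580.3 CPM in corrected lines, 743 and 679 CPM in db7 lines, 967 and 923 CPM in db5 lines, 769 and 741 CPM in B1 control lines and 817 and 868 CPM in A5 control lines. Both corrected lines lay below every other line. The fold change of Gpi1 was log2 -0.52 ± 0.14 against db/db lines (edgeR adjusted p = 0.0151) and -0.46 ± 0.14 against control lines (edgeR adjusted p = 0.0257). Neither call held with shared names (edgeR adjusted p = 0.063 and 0.0832).

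Phosphofructokinase commits sugar to glycolysis and is assembled from liver-type (Pfkl), muscle-type (Pfkm) and platelet-type (Pfkp) subunits. None of the 3 genes passed a test between groups (edgeR adjusted p = 0.178 to 0.86). Pfkl stood at 329 and 328 CPM in corrected lines, 308 and 283 CPM in db7 lines, 506 and 495 CPM in db5 lines and 332 to 424 CPM in control lines. Pfkp stood at 330 and 345 CPM in corrected lines, 310 and 335 CPM in db7 lines, 516 and 523 CPM in db5 lines and 433 to 439 CPM in control lines. In both genes the corrected lines lay beside the db7 lines and away from the db5 lines. Pfkm instead differed among control lines, with 42.7 and 42.9 CPM in B1 lines and 72.2 and 73.7 CPM in A5 lines, against 72.5 to 73.4 CPM in corrected and 60.4 to 68.9 CPM in db/db lines. Genes of chromosome 15, where Pfkm lies, had a median log2 level of 0.42 and 0.43 in the A5 lines relative to the median of lines of other names (367 genes of at least 10 CPM, members left out). Which part the chromosome has in the level of Pfkm was not tested. Genes of chromosome 6, which holds Slc2a3, Hk2, Tpi1, Gapdh and Ldhb, had a median of 0.27 in both B1 lines (396 genes). The B1 minus A5 differences were 0.28 for Gapdh and 0.26 for Hk2, but 0.08 for Slc2a3, 0.07 for Tpi1 and -0.09 for Ldhb. The part of the chromosome in them was likewise not tested.

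Pfkfb3 and Pfkfb4 make and remove fructose 2,6-bisphosphate, the activator of phosphofructokinase. Pfkfb3 was at 12.8 and 13.1 CPM in corrected lines, 8.64 and 9.07 CPM in db7 lines, 19.9 and 20.8 CPM in db5 lines and 13.8 to 15.5 CPM in control lines. The control and corrected lines thus lay between the 2 kinds of db/db line. Pfkfb4 ran the other way within the db/db group, with 3.67 and 3.52 CPM in db7 lines and 2.56 and 2.55 CPM in db5 lines. Neither gene passed a test between groups (edgeR adjusted p = 0.152 to 0.989).

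The triose stage, from aldolase to pyruvate kinase, held 5 of the 11 members that fell in each comparison of corrected lines. All 8 of its genes had a negative log2 fold change in corrected lines against both other groups, and Aldoc, Gapdh, Pgk1, Pgam1 and Eno1 fell in both. All of the stage but Aldoc averaged over 100 CPM, where the shares of all genes called lower were the 43.9% and 38.6% given above. The median of the 8 was -0.63 against db/db lines and -0.54 against control lines. All genes averaging 100 CPM or more had medians of -0.22 and -0.18. Between db/db and control lines none of the 8 was called by edgeR, and their median was 0.10. The db5 lines had the highest mean of the 5 kinds of line for 8 of 8 genes, and the corrected lines the lowest for 7 of 8. Neither these ranks nor the signs above were counted over all tested genes. When lines were scaled by library size alone, the falls of Gapdh and Pgk1 in corrected lines passed the test in neither comparison, and those of Pgam1 and Eno1 only in that against db/db lines.

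Aldoc, the brain-type aldolase, had the largest called fall of this stage. It stood at 8.38 and 9.03 CPM in corrected lines, 26.6 and 22.9 CPM in db7 lines, 26.8 and 26.5 CPM in db5 lines, 18.3 and 18.4 CPM in B1 control lines and 23.9 and 26.1 CPM in A5 control lines. Both corrected lines lay far below all others. The fall was log2 -1.56 ± 0.16 against db/db lines (2.95-fold lower, edgeR adjusted p = 0.00016) and -1.31 ± 0.16 against control lines (2.49-fold lower, edgeR adjusted p = 0.000445). Both calls held with shared names (edgeR adjusted p = 0.0149 and 0.0213) and under each alternative run. The main aldolase of these cells, Aldoa, ran at 1394 to 1400 CPM in corrected, 1243 to 1917 CPM in db/db and 1521 to 1714 CPM in control lines and passed no test (edgeR adjusted p = 0.315 to 0.911).

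Gapdh, which oxidizes glyceraldehyde 3-phosphate, had the highest CPM of the 38. It stood at 3198 and 3128 CPM in corrected lines, 4533 and 3790.0 CPM in db7 lines, 7160.0 and 6794 CPM in db5 lines, 5811 and 5620.0 CPM in B1 control lines and 4836 and 4612 CPM in A5 control lines. Every other line exceeded both corrected lines, and the db7 lines were the nearest. Gapdh fell in corrected lines by log2 -0.82 ± 0.24 against db/db lines (edgeR adjusted p = 0.023) and by -0.72 ± 0.24 against control lines (edgeR adjusted p = 0.0398), and with shared names neither passed (edgeR adjusted p = 0.0698 and 0.1). Of the 31-base stretches in Gapdh transcripts 79.9% also occur in other genes, among them 318 pseudogenes, so its reads can be divided. Summed with the 132 genes that share at least 100 such stretches, the log2 ratio of the mean levels was -0.80 against db/db and -0.69 against control lines.

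Pgk1, the X-linked phosphoglycerate kinase that makes the first ATP of the pathway, and Eno1, the main enolase of these cells, ranked the line names alike. In Gapdh the A5 and B1 control lines stood in the reverse order. Pgk1 stood at 1144 and 1164 CPM in corrected lines, 1479 and 1359 CPM in db7 lines, 2132 and 2176 CPM in db5 lines, 1537 and 1582 CPM in B1 control lines and 1776 and 1908 CPM in A5 control lines. Eno1 stood at 1931 and 1938 CPM in corrected lines, 2652 and 2357 CPM in db7 lines, 3523 and 3404 CPM in db5 lines, 2568 and 2482 CPM in B1 control lines and 2934 and 3088 CPM in A5 control lines. For both genes the corrected lines lay below every other line and the db5 lines above. The falls against db/db lines were log2 -0.63 ± 0.19 for Pgk1 (edgeR adjusted p = 0.0274) and -0.62 ± 0.16 for Eno1 (edgeR adjusted p = 0.014). Against control lines they were -0.56 ± 0.19 for Pgk1 (edgeR adjusted p = 0.0466) and -0.52 ± 0.16 for Eno1 (edgeR adjusted p = 0.0333). With shared names these edgeR adjusted p-values were 0.0587 to 0.111. Of the stretches of Pgk1 68.3% occur in 6 other genes, all pseudogenes, and of those of Eno1 61.3% occur in 13 other genes, of which 12 are pseudogenes.

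Pgam1, the mutase that moves the phosphate of 3-phosphoglycerate, kept its fall with shared names against db/db lines. Its levels were 656 and 654 CPM in corrected lines, 952 and 879.5 CPM in db7 lines, 976 and 1009 CPM in db5 lines, 723 and 736 CPM in B1 control lines and 879 and 909 CPM in A5 control lines. The corrected lines were lowest, and the db/db lines overlapped only with the A5 control lines. Pgam1 fell by log2 -0.54 ± 0.10 against db/db lines (edgeR adjusted p = 0.0032, and 0.0342 with shared names) and by -0.31 ± 0.10 against control lines (edgeR adjusted p = 0.0422, and 0.115 with shared names).

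Tpi1, which interconverts the triose phosphates, showed the widest gap between names at this stage. It stood at 351 and 352 CPM in corrected lines, 371 and 340 CPM in db7 lines, 931 and 929.7 CPM in db5 lines, 589 and 571 CPM in B1 control lines and 538 and 565 CPM in A5 control lines. Corrected and db7 lines lay together, and the db5 lines stood far above the rest. With the db/db group so spread, the log2 difference of -0.87 ± 0.39 between corrected and db/db lines did not pass (edgeR adjusted p = 0.109). Pkm, which encodes the pyruvate kinase that ends glycolysis, averaged 2691 ± 7.58 CPM in corrected, 3490.0 ± 585 CPM in db/db and 3402 ± 313 CPM in control lines (SD). Its log2 difference of -0.38 ± 0.14 against db/db lines missed the threshold (edgeR adjusted p = 0.0639).

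**Figure D3:**
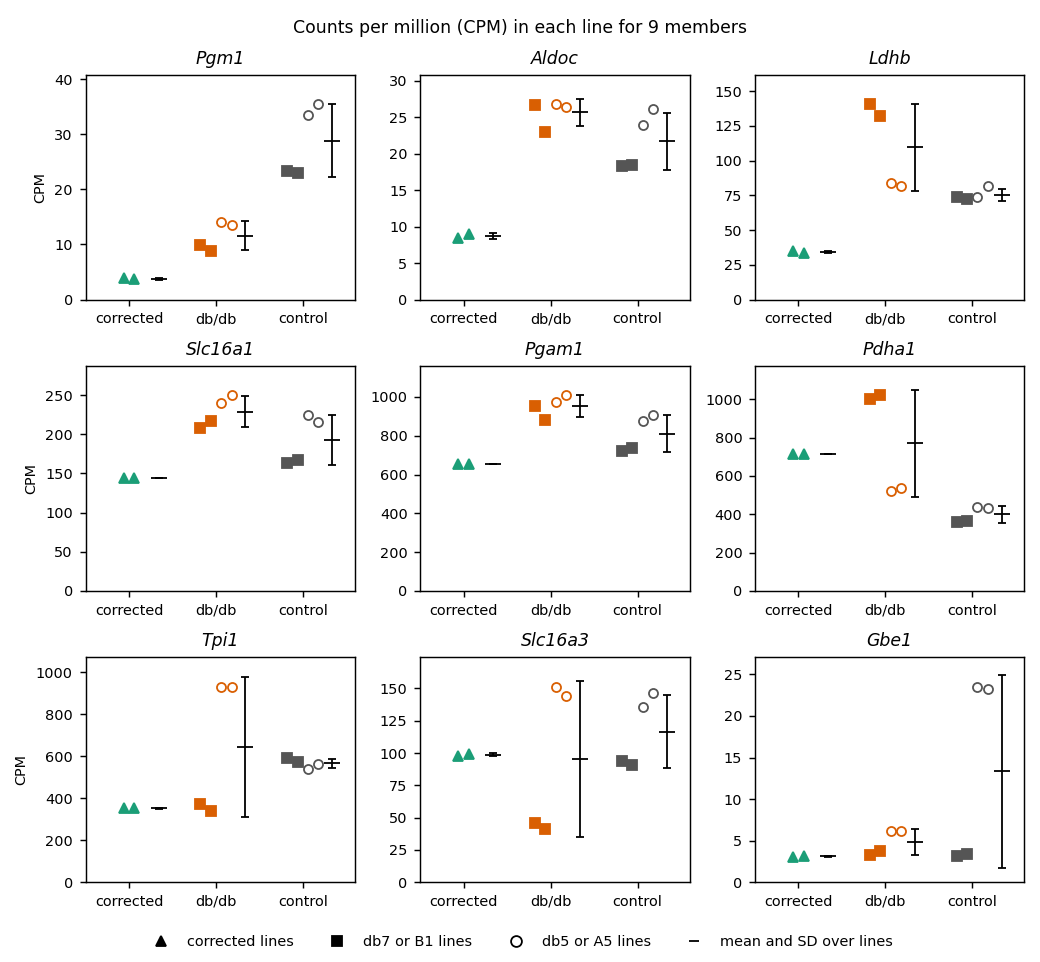
CPM of 9 members in each line (triangles, corrected lines; filled squares, db7 or B1 lines; open circles, db5 or A5 lines), with the mean and SD over lines as bars. Pgm1, Aldoc, Ldhb, Slc16a1 and Pgam1 are lowest in the corrected lines, whereas Pdha1, Tpi1 and Slc16a3 separate db7 from db5 lines and Gbe1 separates B1 from A5 control lines.

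Lactate dehydrogenase is built from Ldha subunits, which favour making lactate, and Ldhb subunits, which favour its oxidation. Ldhb had the largest fall between corrected and db/db lines of the 38 members. It stood at 34.7 and 33.8 CPM in corrected lines, 140.9 and 132 CPM in db7 lines, 83.6 and 81.7 CPM in db5 lines, 73.8 and 72.3 CPM in B1 control lines and 73.7 and 81.8 CPM in A5 control lines. The corrected lines were far below all others, and the db7 lines far above. Ldhb fell by log2 -1.68 ± 0.23 against db/db lines (3.20-fold lower, edgeR adjusted p = 0.000564) and by -1.14 ± 0.22 against control lines (2.20-fold lower, edgeR adjusted p = 0.00396). Both calls held with shared names (edgeR adjusted p = 0.0176 and 0.0338) and under each alternative run. In db/db against control lines the difference of 0.54 ± 0.17 missed the threshold (edgeR adjusted p = 0.0558), and the db5 lines lay beside the highest control line.

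Ldha stood at 877 and 886 CPM in corrected lines, 855 and 787 CPM in db7 lines, 1458 and 1466 CPM in db5 lines and 1108 to 1270.0 CPM in control lines. It passed no test (edgeR adjusted p = 0.209 to 0.899), and again corrected and db7 lines lay together below the rest. Slc16a1 and Slc16a3 encode the lactate transporters MCT1 and MCT4. Slc16a1 was at 144.1 CPM in both corrected lines, 207 and 217 CPM in db7 lines, 239.9 and 249.7 CPM in db5 lines, 163 and 167 CPM in B1 control lines and 225 and 216 CPM in A5 control lines. Both corrected lines lay below every other line. Slc16a1 fell by log2 -0.66 ± 0.14 against db/db lines (edgeR adjusted p = 0.00531, and 0.0373 with shared names) and by -0.42 ± 0.14 against control lines (edgeR adjusted p = 0.0417, and 0.11 with shared names). Genes of chromosome 3, where Slc16a1 lies, had median log2 levels of -0.21 and -0.22 in the corrected lines and 0.44 and 0.46 in the db7 lines relative to lines of other names (421 genes), and between corrected and db/db lines their median difference was -0.41. Which part the chromosome has in the fall of Slc16a1 was not tested.

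Slc16a3 showed the largest gap between db/db names among the members. It stood at 98.0 and 99.5 CPM in corrected lines, 45.5 and 41.1 CPM in db7 lines, 151 and 144 CPM in db5 lines, 94.2 and 90.8 CPM in B1 control lines and 135 and 146 CPM in A5 control lines. The group means hid this: the log2 differences were 0.05 ± 0.50 for corrected against db/db and -0.29 ± 0.41 for db/db against control lines, and neither passed (edgeR adjusted p = 0.951 and 0.661).

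The pyruvate dehydrogenase genes held most of the rises. Pdha1, the X-linked gene of the catalytic subunit that the kinases phosphorylate, stood at 714.7 and 714.2 CPM in corrected lines, 1003 and 1021 CPM in db7 lines, 520.1 and 535 CPM in db5 lines, 361 and 364 CPM in B1 control lines and 439.9 and 433 CPM in A5 control lines. Every corrected and db/db line exceeded every control line, and the corrected lines lay between db5 and db7 lines. Pdha1 rose by log2 0.95 ± 0.22 in db/db against control lines (1.93-fold, edgeR adjusted p = 0.0188) and by 0.84 ± 0.26 in corrected against control lines (1.79-fold, edgeR adjusted p = 0.0337). With shared names neither passed (edgeR adjusted p = 0.224 and 0.107). The median difference of X-linked genes between db/db and control lines was 0.14 (319 genes), and the part of the chromosome in the rise of Pdha1 was not tested.

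Pdk1, a kinase that inactivates the complex, stood at 182 and 186 CPM in corrected lines, 159 and 169 CPM in db7 lines, 204 and 206 CPM in db5 lines, 152 and 150.0 CPM in B1 control lines and 114 and 112 CPM in A5 control lines. Corrected and db/db lines all exceeded the control lines, with the db7 lines close to the B1 lines. Pdk1 rose by log2 0.48 ± 0.12 in db/db (edgeR adjusted p = 0.0266) and 0.48 ± 0.15 in corrected lines (edgeR adjusted p = 0.0337) against control lines, and with shared names the edgeR adjusted p-values were 0.264 and 0.119. Pdk2, another kinase of the complex, rose in corrected lines but stayed low, at 9.10 and 8.69 CPM, against 5.26 and 5.07 CPM in db7 lines, 6.88 and 6.17 CPM in db5 lines and 5.69 to 6.54 CPM in control lines. Both corrected lines lay above every other line. The rises of Pdk2 were log2 0.60 ± 0.14 against db/db lines (edgeR adjusted p = 0.00761) and 0.53 ± 0.14 against control lines (edgeR adjusted p = 0.0155), and with shared names the edgeR adjusted p-values were 0.0736 and 0.109.

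The other subunits moved less. Pdhb, the partner of Pdha1 in the catalytic heterotetramer, was at 154 and 153 CPM in corrected lines, 177 and 172 CPM in db7 lines, 206 and 211 CPM in db5 lines and 155 to 183 CPM in control lines. It fell in corrected relative to db/db lines by log2 -0.32 ± 0.10 (edgeR adjusted p = 0.0355, and 0.109 with shared names), while Pdha1 showed -0.11 ± 0.27 there. Pdk3, an X-linked kinase of the complex, and Dlat, the acetyltransferase core, were steady at 32.9 to 38.2 CPM and 71.0 to 81.1 CPM over all 10 lines, and passed no test (edgeR adjusted p = 0.282 to 0.957).

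The 6 glycogen genes had negative log2 fold changes in db/db and in corrected lines against control lines (medians -0.75 and -0.76), and 2 of the 6 were called lower in each, beside the 9.5% and 17.0% of all genes given above. Only Pgm1 and Pygb were called in db/db lines, and Pgm1 and Ugp2 in corrected lines. Pgm1, the phosphoglucomutase that links glucose 6-phosphate to glycogen, had the largest change of all members. It stood at 3.86 and 3.67 CPM in corrected lines, 9.90 and 8.82 CPM in db7 lines, 14.1 and 13.6 CPM in db5 lines, 23.4 and 23.0 CPM in B1 control lines and 33.5 and 35.5 CPM in A5 control lines. The 3 groups did not overlap, and within the db/db and control groups the names differed as well. Pgm1 fell by log2 -1.31 ± 0.19 in db/db against control lines (2.49-fold lower, edgeR adjusted p = 0.00237). In corrected lines it fell by -1.62 ± 0.26 against db/db lines (3.08-fold lower, edgeR adjusted p = 0.00126) and by -2.94 ± 0.28 against control lines (7.66-fold lower, edgeR adjusted p = 0.000121).

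Both falls of Pgm1 in corrected lines held with shared names (edgeR adjusted p = 0.0227 and 0.0171), and that in db/db lines did not (edgeR adjusted p = 0.138). The corrected lines thus lay farther from control lines than the db/db lines did. Pgm1 lies on chromosome 4 from 99929414 to 99987294 on the forward strand (GRCm38), 1.73 Mb from Lepr, the leptin receptor gene that carries the db mutation. Pgm1 transcripts share sequence with Itgb3bp, which overlaps it in the annotation, and summed with that gene the log2 ratios of mean levels were -1.34 and -2.39 for corrected lines against db/db and control lines, and -1.05 for db/db against control lines. The other members of chromosome 4 (Slc2a1, Eno1 and Pgd) lie 17.29 to 48.42 Mb from Lepr.

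Ugp2, which makes UDP-glucose, stood at 19.3 and 20.9 CPM in corrected lines, 20.2 and 19.2 CPM in db7 lines, 22.0 and 23.1 CPM in db5 lines, 30.3 and 31.2 CPM in B1 control lines and 24.1 and 22.7 CPM in A5 control lines. It fell in corrected against control lines by log2 -0.43 ± 0.14 (edgeR adjusted p = 0.0418, and 0.135 with shared names), and the B1 lines stood apart above the rest. Gys1, glycogen synthase, was at 120.3 and 117.6 CPM in corrected lines, 131 and 118 CPM in db7 lines, 184 and 175 CPM in db5 lines, 148 and 143 CPM in B1 control lines and 196 and 202 CPM in A5 control lines, and passed no test (edgeR adjusted p = 0.0684 to 0.466). Its own level made 31.7% of the sum with Ruvbl2, a neighbour with which its transcripts share sequence.

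Gbe1, the branching enzyme, separated a single kind of line from the rest. It was at 23.5 and 23.3 CPM in A5 control lines and at 3.09 to 6.15 CPM in the other 8 lines, with 3.21 and 3.39 CPM in B1 control lines. The log2 difference of -2.82 between B1 and A5 lines was the largest between names of a genotype among the members. Its negative fold changes against the control group rest on the A5 lines, and no group comparison of Gbe1 passed (edgeR adjusted p = 0.0842 to 0.567). Glycogen phosphorylase releases glucose from glycogen, and its brain form Pygb moved in both directions. Pygb stood at 58.4 and 60.6 CPM in corrected lines, 37.8 and 37.8 CPM in db7 lines, 36.9 and 38.2 CPM in db5 lines, 90.2 and 86.5 CPM in B1 control lines and 49.5 and 49.4 CPM in A5 control lines. All 4 db/db lines agreed closely and lay below all others. Pygb fell in db/db against control lines by log2 -0.87 ± 0.19 (edgeR adjusted p = 0.0151, and 0.212 with shared names) and rose in corrected relative to db/db lines by 0.66 ± 0.23 (edgeR adjusted p = 0.0469, and 0.128 with shared names). The liver form Pygl was at 1.11 to 3.67 CPM and passed no test (edgeR adjusted p = 0.089 to 0.524).

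Of the pentose phosphate genes, Pgd alone was called. Pgd, the second NADPH-making dehydrogenase of the oxidative branch, stood at 185 and 173 CPM in corrected lines, 214 and 205 CPM in db7 lines, 244 and 241 CPM in db5 lines, 214 and 209 CPM in B1 control lines and 225 and 226 CPM in A5 control lines. Both corrected lines lay below all others. Pgd fell by log2 -0.34 ± 0.08 against db/db lines (edgeR adjusted p = 0.0107) and by -0.29 ± 0.08 against control lines (edgeR adjusted p = 0.0234), and with shared names the edgeR adjusted p-values were 0.0686 and 0.104. G6pdx, the X-linked dehydrogenase that opens the pathway, was at 159.5 and 162 CPM in corrected lines, 189.5 to 229.7 CPM in db/db lines and 165 to 234 CPM in control lines (edgeR adjusted p = 0.0919 to 0.774). The sugar-rearranging enzymes of the non-oxidative branch passed no test. Tkt ranged from 476 to 549 CPM and Taldo1 from 171 to 193 CPM over the 10 lines, and their edgeR adjusted p-values were 0.0782 to 0.663 for Tkt and 0.55 to 0.919 for Taldo1.

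Between shared names of a group most members differed by more than between the db/db and control groups, as did most tested genes. In 34 of the 38 members (89.5%) the larger of the 2 gaps between shared names (db7 minus db5, B1 minus A5) exceeded the difference between db/db and control lines, as it did in 71.7% of all tested genes and 75.6% of those of at least 100 CPM. The median size of the db7 minus db5 difference was 0.44 on the log2 scale, against 0.24 for B1 minus A5 and 0.13 for db/db minus control. The widest difference between the near-copy lines of a name had a median of 0.12 and a maximum of 0.26 over the members. Over all 19700 tested genes the corresponding median sizes were 0.27 for db7 minus db5, 0.25 for B1 minus A5 and 0.24 for db/db minus control, and over genes of at least 100 CPM they were 0.15, 0.13 and 0.11. With 2 near-copy lines a name, no test of db7 against db5 was made.

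The gap within the db/db group had a direction. The db7 lines lay below the db5 lines in 31 of 38 members (81.6%, against 49.7% of all tested genes), with a median difference of -0.35 (0.00 for all genes). This held for 4 of 4 transport and hexokinase genes, 8 of 8 triose-stage genes and 5 of 6 glycogen genes. The largest differences were -1.77 for Slc16a3, -1.39 for Tpi1, -1.19 for Pfkfb3 and -0.83 for Ldha, and in the other direction 0.94 for Pdha1, 0.72 for Ldhb and 0.49 for Pfkfb4. The corrected lines were nearer to the db7 than to the db5 lines in 30 of 38 members. Their median difference from db7 lines was -0.01 and that from db5 lines -0.53, and 18 members lay below both kinds of db/db line, 14 between them and 6 above both. The counts for corrected lines were not made over all tested genes. Where the corrected lines lie below both names, the lower name is nearer by definition. The labels do not tie the corrected lines to either name.

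**Figure D4:**
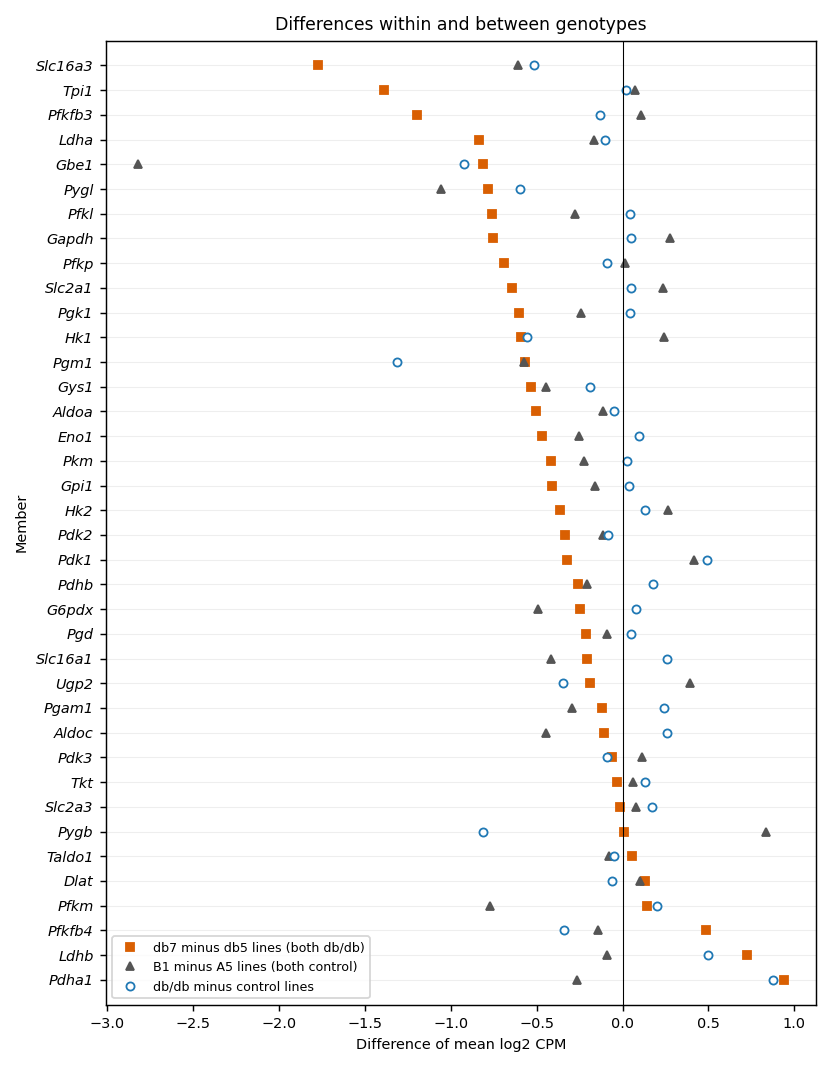
Difference of mean log2 CPM for each member (rows, ordered by the first difference) between db7 and db5 lines (squares), B1 and A5 lines (triangles) and db/db and control lines (open circles). Squares run from -1.77 for Slc16a3 to 0.94 for Pdha1 with 31 of 38 below 0, while most circles lie within 0.5 of 0.

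Subunits and isoforms of a family did not move in step, so their proportions shifted between lines. Per kilobase of transcript, Ldhb made 4.59% and 4.44% of Ldha and Ldhb together in corrected lines, 16.7% and 17.0% in db7 lines, 6.53% and 6.35% in db5 lines and 6.87% to 7.51% in control lines. Slc16a3 made 55.8% and 56.2% of the MCT1 and MCT4 sum in corrected lines, 28.9% and 26.0% in db7 lines, 53.9% and 51.7% in db5 lines and 50.2% to 55.7% in control lines. For both pairs the db7 lines alone were far from the others. Pfkfb4 made 15.7% and 15.9% of its pair in corrected lines, 21.04% and 19.6% in db7 lines, 7.49% and 7.16% in db5 lines and 12.4% to 15.8% in control lines.

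Other families separated the genotypes or the control names. Hk1 made 11.1% and 11.3% of the hexokinase pair in corrected lines, 9.24% to 11.3% in db/db lines and 15.2% to 16.0% in control lines, so that the control lines lay above all others. Pdk1 made 63.0% and 64.2% of the 3 kinases in corrected lines, 62.3% to 67.1% in db/db lines and 52.5% to 58.5% in control lines. Pfkm made 12.4% and 11.98% of the phosphofructokinases in corrected lines, 12.4% and 11.8% in db7 lines, 7.10% and 6.99% in db5 lines, 6.41% and 6.58% in B1 control lines and 9.90% and 9.80% in A5 control lines. Aldoc was a small part of the aldolases throughout, at 0.40% and 0.43% in corrected, 0.93% to 1.27% in db/db and 0.77% to 1.01% in control lines.

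**Figure D5:**
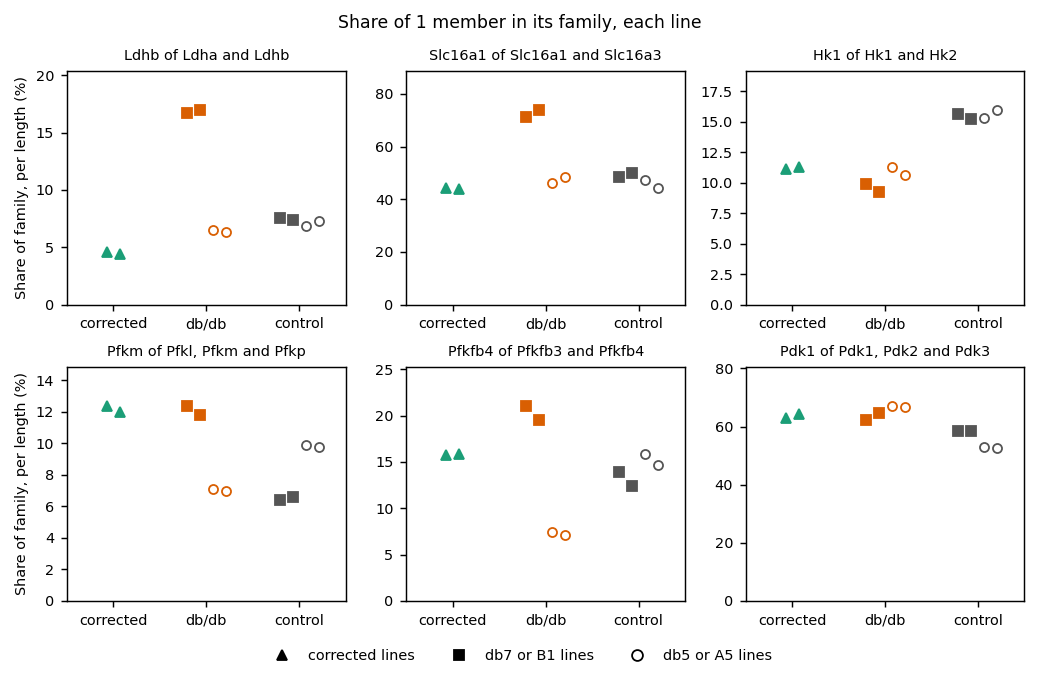
Share of 1 member in the summed level of its family per kilobase of transcript (%), in each line (triangles, corrected; squares, db7 or B1; open circles, db5 or A5). Ldhb and Slc16a1 shares are highest in db7 lines, the Hk1 share is highest in control lines, and the Pfkfb4 share is lowest in db5 lines.

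Other genes around the pathway were read from lists of neighbouring enzymes and regulators. Their calls below have the line as the unit. With shared names edgeR called none of these list genes between db/db and control lines (edgeR adjusted p = 0.0681 to 0.292 for those named). Those named in corrected lines against either group kept their calls (edgeR adjusted p = 0.0149 to 0.0344). The near-copy corrected lines still counted as separate units there, so these latter p-values stay too small. Of 45 tested genes of glycolysis, gluconeogenesis and pyruvate use outside the members, 12 rose and 10 fell in corrected against db/db lines (median log2 0.06, and 7 and 4 of 47 tested with shared names), 10 rose and 13 fell in corrected against control lines (-0.13, and 5 and 6 with shared names), and 4 rose and 4 fell in db/db against control lines (-0.05). Fbp2, a fructose bisphosphatase that runs the pathway backwards, averaged 4.51 ± 0.23 CPM in corrected, 1.46 ± 0.39 CPM in db/db and 6.23 ± 1.08 CPM in control lines. It fell in db/db against control lines (log2 -2.09 ± 0.20, edgeR adjusted p = 0.000274) and rose in corrected relative to db/db lines (1.62 ± 0.23, edgeR adjusted p = 0.000752). Tigar, which lowers fructose 2,6-bisphosphate, fell in db/db against control lines (-0.50 ± 0.06, edgeR adjusted p = 0.000508) and was at 68.7 ± 1.43 CPM in corrected, 85.5 ± 1.47 CPM in db/db and 121 ± 7.84 CPM in control lines. Mpc1, a subunit of the mitochondrial pyruvate carrier, rose in both (0.46 ± 0.07 in db/db and 0.56 ± 0.09 in corrected against control lines, edgeR adjusted p = 0.00312 and 0.0012). The testis-type lactate dehydrogenase gene Ldhc fell in corrected against db/db lines, as Ldhb did (-1.44 ± 0.18, edgeR adjusted p = 0.000376).

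Of 23 other glycogen genes, 4 rose and 1 fell in corrected against db/db lines (1 and 0 with shared names), 4 rose and 1 fell in corrected against control lines (3 and 0), and 3 rose and 1 fell in db/db against control lines, with median log2 values of 0.12, 0.20 and 0.08. Phka2 and Phka1, X-linked regulatory subunits of phosphorylase kinase, rose in db/db against control lines (0.97 ± 0.08 and 0.45 ± 0.13, edgeR adjusted p = 9.85e-05 and 0.0405). Nhlrc1, the ubiquitin ligase malin, fell there (-1.22 ± 0.26, edgeR adjusted p = 0.0128). Of 15 other pentose and ribose phosphate genes, 4 rose and 2 fell, 2 rose and 1 fell, and 3 rose and 1 fell in these 3 comparisons. Prps2, an X-linked gene whose enzyme turns ribose 5-phosphate into PRPP for nucleotides, averaged 68.6 ± 0.84 CPM in corrected, 41.5 ± 1.41 CPM in db/db and 26.4 ± 0.95 CPM in control lines. It rose in each step (log2 0.65 ± 0.05 in db/db against control, edgeR adjusted p = 9.54e-05, and 0.73 ± 0.06 in corrected relative to db/db lines, edgeR adjusted p = 7.04e-05). H6pd, the endoplasmic reticulum dehydrogenase, rose in db/db against control lines (0.61 ± 0.06, edgeR adjusted p = 0.000172).

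A list of regulators of glycolytic genes, not all of which bind DNA, had more calls lower than higher in corrected lines. The list was not matched to other genes in level. Of genes averaging 100 CPM or more, 43.9% were called lower against db/db lines and 38.6% against control lines. Of 23 tested, 10 fell and 2 rose against db/db lines (median log2 -0.38, and 6 and 1 with shared names), and 12 fell and 0 rose against control lines (-0.35, and 6 and 0 with shared names), while in db/db against control lines 3 fell and 1 rose (0.01). Myc averaged 389 ± 11.3 CPM in corrected, 724 ± 97.2 CPM in db/db and 599 ± 42.0 CPM in control lines and fell in corrected lines by log2 -0.90 ± 0.12 against db/db lines (edgeR adjusted p = 0.000511). Myc belongs to the genes averaging 100 CPM or more, of which 43.9% were called lower in that comparison. The lentivirus also carries cMyc, and its transcripts and endogenous ones were not told apart. Max, the partner of MYC on DNA, fell by -0.74 ± 0.09 (edgeR adjusted p = 0.000342), with 61.4 CPM in corrected and 102 CPM in db/db lines. Mlx fell by -0.56 ± 0.08 (edgeR adjusted p = 0.000936), and Mlxipl (ChREBP), at 1.35 ± 0.13 CPM in corrected and 0.30 ± 0.07 CPM in db/db lines, rose by 2.18 ± 0.24 (edgeR adjusted p = 0.000217). Of 32 hypoxia and HIF genes outside the members, 9 fell and 3 rose in corrected against db/db lines (median -0.20, and 2 and 2 with shared names), 6 fell and 1 rose in corrected against control lines (-0.13, and 3 and 0 with shared names), and 4 fell and 3 rose in db/db against control lines (0.01). Fam162a, a HIF target of mitochondria, averaged 7.77 ± 0.19 CPM in corrected, 32.6 ± 12.3 CPM in db/db and 32.0 ± 0.40 CPM in control lines (-2.07 ± 0.31 against db/db lines, edgeR adjusted p = 0.000911), while Plod2 rose (0.55 ± 0.09, edgeR adjusted p = 0.00131). Egln3, an oxygen sensor that HIF induces, rose in db/db against control lines (1.02 ± 0.21, edgeR adjusted p = 0.0115) and was at 28.2 CPM on average in db7 and 52.8 CPM in db5 lines. All genes of these lists were tested in the same fit as the members, beside which the background shares given above stand.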

How the data were processed

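Per-gene estimated counts for 19 poly(A) RNA libraries were made and deposited by the authors (stranded mRNA kit and NovaSeq, per the labels' protocols). Kallisto and GRCm38 come from the submitters' processing notes, and no source used here states the version, the index or how transcripts were summed. Of 52143 identifiers 51336 matched GENCODE M21, with 99.38% of counts, and 79.7% of values were whole within 1e-06. Estimated counts divide reads between similar transcripts.

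Counts were rounded per library and summed per line (2 corrected, 4 db/db and 4 control lines), since the labels do not name separate cultures. P-values measure only the spread between these lines, which may be partly technical. All groups entered a single edgeR 4.0.16 quasi-likelihood fit in R 4.3.3 (filterByExpr, 19700 genes, TMM scaling, Benjamini-Hochberg threshold 0.05). SE is the fold change over the square root of F. Levels are TMM-scaled CPM, and differences between names use log2 CPM with a prior count of 2. The fit was tested on simulated data. Alternatives were other scalings and filters, DESeq2 1.42.0, each library or shared name as the unit, replicate blocks, only the groups compared, and leaving out a line or the adb_db7 library. Sums with genes that share at least 100 stretches of 31 bases were added after seeing the data.

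All 38 members are named, and up to 4 genes per list and comparison were eligible by adjusted p. The members and lists were chosen with earlier results of these data known. Aldoa has a second identifier in the table, which was not used. Python 3.11.15, pandas 2.3.3 and matplotlib 3.10.9 made tables and figures.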

Additional observations from a re-analysis of the deposited data

Results flagged for a closer look

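Among the 4 db/db lines, Aldoc in line bdb_db7 stood apart from the others, at 22.93 CPM against 26.45 to 26.81 CPM. Among the 4 control lines, Ldhb in line bB6_A5 stood apart, at 81.82 CPM against 72.31 to 73.83 CPM. In each case the gap to the nearest line took 0.907 and 0.84 of the group's whole range, above Dixon's 95% critical value for 4 lines. The rule was run on each of the 38 members in both the db/db and the control group. Chance flags about 1 in 20 groups of independent lines, whereas these groups were pairs of near copies. Both lines lay well above the corrected lines.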

How the results depend on the processing

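Of 2382 member results under alternatives 2137 kept their side of the threshold, 160 were weaker, 85 stronger and 0 of the called ones reversed. Results called in neither fit could change sign, as Pdk1 in corrected against db/db lines did under 7 of 20 alternatives. Aldoc, Ldhb and Pgm1 in both comparisons of corrected lines, and Pgam1 against db/db lines, passed under all 20 alternatives. Counts below are of members called higher, called lower, and of all genes called. In db/db against control lines, each library as a sample gave 9, 6 and 7247, and DESeq2 gave 6, 4 and 4603. The filter at a mean of 10 CPM gave 1642 genes there, and lines summed per shared name gave 0, 0 and 34. For corrected against db/db lines, DESeq2 size factors gave 1 higher and 7336 genes, and library size alone 5, 6 and 7032. The filter at 10 CPM gave 1 higher and 3843 genes there, and shared names 0, 5 and 3281. For corrected against control lines, library size alone gave 5, 3 and 6456, and the filter at 10 CPM 4 lower and 3855 genes. Each library as a sample gave 6, 18 and 9413 (of 17546 genes tested), and shared names 0, 3 and 2547. The cause was not tested. At 10 CPM 9154 genes and 34 members remained, so Pdk2 was not tested there.

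The duplicate number as a replicate block in db/db against control libraries gave 8 higher, 4 lower and 6188 genes, against 9, 5 and 6175 without it, and the first letter of the line as a replicate block gave 0, 1 and 1439. The numbers share no stated source. Same-numbered libraries had deviations correlating at 0.0119 to 0.531 (12 pairs) and same-letter lines at -0.515 to 0.336 (4 pairs).

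Leaving out each line gave 1 to 4 higher, 2 to 4 lower and 1991 to 3211 genes for db/db against control lines, with 1991 without control replicate 2. It gave 0 to 2, 4 to 13 and 3113 to 7638 for corrected against db/db lines, and 0 to 4, 3 to 11 and 2377 to 7236 for corrected against control lines, the lowest without a corrected line. That leaves a lone corrected line, assumed to vary like the other groups. The effect of depth was not tested.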
